A study of Mus musculus with 4 samples.

Results

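The genes for the proteins of the cytosolic ribosome were taken from the deposited table by symbol: names made of Rpl, Rps or Rplp and a number with at most 2 further characters, and Rpsa. This gave 79 of the 36088 genes in the table, 46 of the large subunit and 33 of the small subunit. Of these, 77 are annotated as protein-coding in GENCODE M21, and 2, Rps3a2 and Rps3a3, as processed pseudogenes that carry a gene-like symbol. The study measured RNA in wild-type mouse male germ cells that had been sorted from fetal testes in culture, and its design text names the role of serine metabolism in their differentiation as the question. It holds 4 libraries with day 14 in their titles: 2 from cultures with the solvent DMSO as control and 2 from cultures with CBR-5884, which the design text calls an inhibitor of serine metabolism. No transgene, deletion or dose is given for either group, and the replicates are described as biological. The table numbers the libraries 2 and 4 in each group, which cannot be matched to the labelled replicates 1 and 2, so each library goes by its condition and its number in the table.

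The ribosome is built from a large and a small subunit, each a frame of ribosomal RNA covered by single copies of most of its proteins. The small subunit reads the messenger RNA, and the large subunit joins amino acids and carries a flexible stalk that recruits the translation factors. Mammalian messenger RNAs for these proteins begin with a pyrimidine tract that couples their translation to nutrient signalling. Their genes have also left many processed pseudogenes, intronless copies made from the messenger RNA.

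The start sites of the most abundant members vary, with a pyrimidine tract near the annotated start of Rpl13a and Rps24 but not of Rpl41. They are printed for the 3 members with the highest mean level, from 40 bases before to 20 bases from the RefSeq start on (build GRCm38.p6), with the longest run of C or T within 20 bases of the start in capitals. Rpl13a lies at chr7:45128726-45128785 on the minus strand, Rpl41 at chr10:128549149-128549208 on the minus strand, and Rps24 at chr14:24490638-24490697 on the plus strand.
Rpl13a: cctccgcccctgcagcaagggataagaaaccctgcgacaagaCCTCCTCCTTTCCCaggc
Rpl41: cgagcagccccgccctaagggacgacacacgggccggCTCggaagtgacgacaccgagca
Rps24: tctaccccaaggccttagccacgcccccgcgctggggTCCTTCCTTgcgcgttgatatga
The run is 14 bases long in Rpl13a and 9 bases long in Rps24, while in Rpl41 no run near the annotated start is longer than 3 bases. RefSeq promoter entries were matched for 57 members by symbol. A run of at least 8 C or T on the sense strand within 20 bases of the start was present in 26 of them (45.6%), against 15.9% of 27025 genes. The motif CTTTC in the same window was present in 17 (29.8%), against 5.38% of all, and its other strand, GAAAG, in 4 (7.02%), against 4.70% of all. The CTTTC match was found in 13 of 34 large subunit genes and in 4 of 23 small subunit genes, and, being made of C and T itself, it can lie inside the runs counted before. These matches describe letters near an annotated start, and their use was not measured here.

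Levels are in TPM, transcript abundance as a share of the library, which divide by transcript length and so allow levels of different genes to be set side by side. Ribosomal protein genes made up 8.35% of all TPM in DMSO library 2, 8.83% in DMSO library 4, 8.63% in CBR-5884 library 2 and 7.94% in CBR-5884 library 4. By mean level over the 4 libraries, 35 of the 100 most abundant genes and 21 of the 50 most abundant were members, and 72 members lay in the top 500. All 79 passed the filter of a mean TPM of at least 1, which left 14920 genes tested. Levels of the 77 protein-coding members ran from 24.1 to 3355 TPM with a median of 935, and the median over all tested genes was 21.4 TPM.

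The summed levels of both subunits moved together. Large subunit genes summed to 45881 and 48484 TPM in the DMSO libraries and to 46978 and 42146 TPM in the CBR-5884 libraries, given in each group as library 2 and then library 4, an order used throughout. Small subunit genes summed to 37873 and 39685 TPM with DMSO and to 39138 and 34617 TPM with CBR-5884. For both subunits CBR-5884 library 4 was the lowest of the 4 and CBR-5884 library 2 lay between the DMSO libraries. The ratio of large to small sums was 1.21 and 1.22 with DMSO and 1.20 and 1.22 with CBR-5884, a mean of 1.217 ± 0.0073 against 1.209 ± 0.012 (SD, n = 2). The groups overlapped, and with 2 against 2 libraries an exact permutation test cannot give a p below 0.33, so no such test was made on sums.

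**Figure D1:**
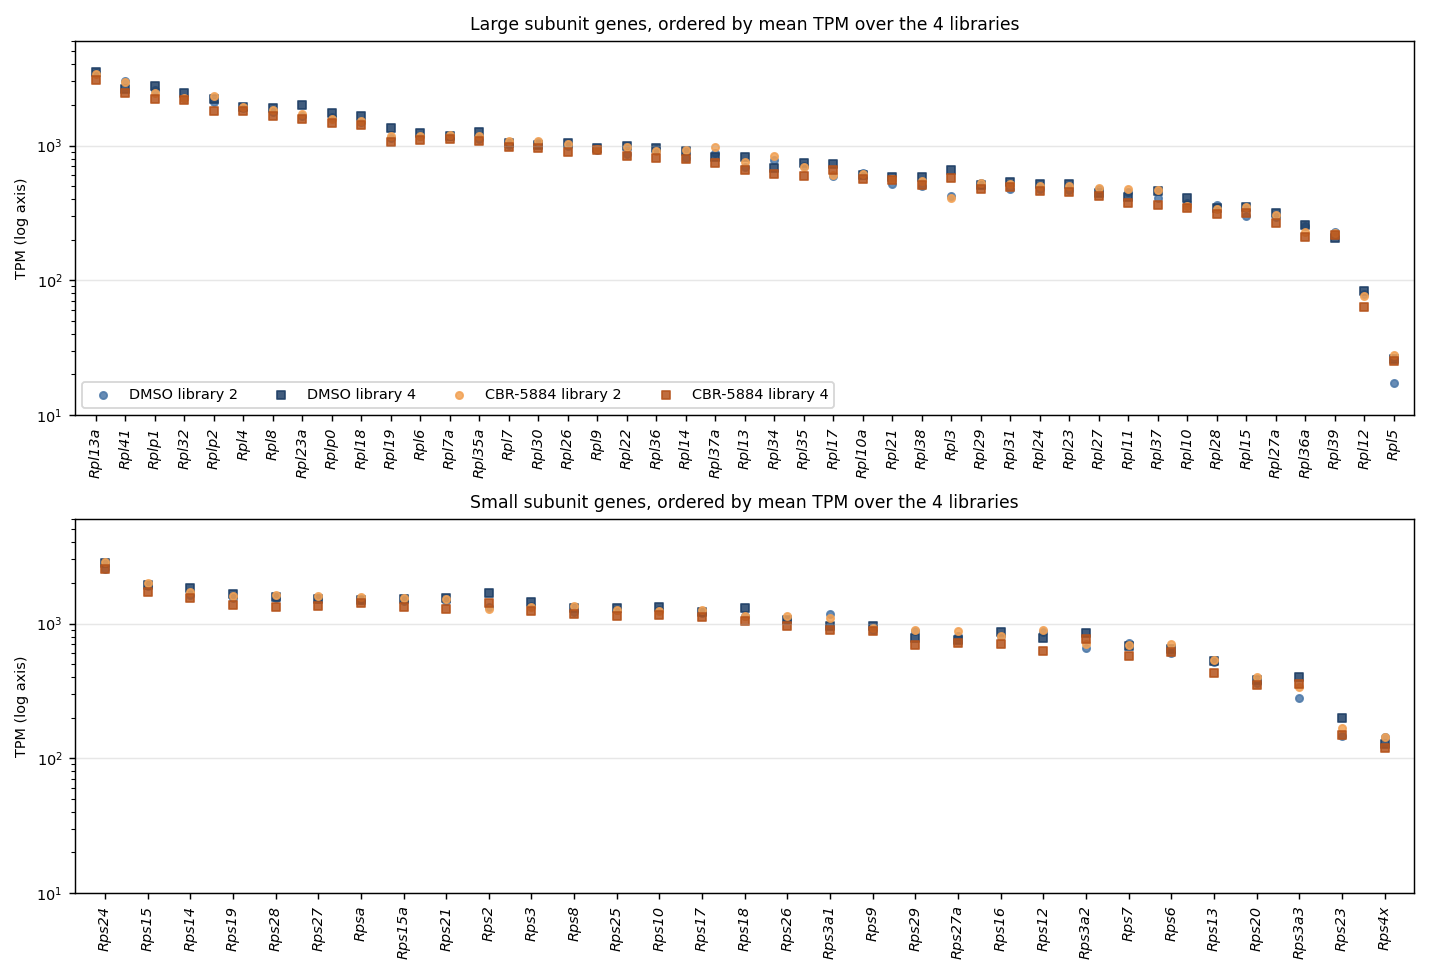
Level of 76 of the 79 members in each library (TPM, log axis), with large subunit genes above and small subunit genes below, ordered by mean; circles are libraries numbered 2 and squares libraries numbered 4. The 4 libraries of a gene lie close together beside the range from 24.1 TPM for Rpl5 to 3355 TPM for Rpl13a.

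The most abundant member was Rpl13a, a large subunit protein also known from interferon-regulated translation control, at 3440 and 3493 TPM with DMSO and 3401 and 3088 TPM with CBR-5884. Both CBR-5884 libraries lay below both DMSO libraries, with a log2 fold change of −0.10 (95% interval −0.33 to 0.14). Rpl41, one of the smallest known eukaryotic proteins, had 3001 and 2618 TPM with DMSO and 2953 and 2448 TPM with CBR-5884. Its libraries overlapped between groups, and both libraries numbered 4 were below both numbered 2. Rps24, a small subunit protein whose gene is mutated in Diamond-Blackfan anaemia, an inherited failure of red cell formation, had 2546 and 2824 TPM with DMSO and 2850 and 2553 TPM with CBR-5884, and its groups overlapped. Rpl32, a large subunit protein, had 2253 and 2453 TPM with DMSO and 2268 and 2173 TPM with CBR-5884. Rpl4, a large subunit protein that reaches into the exit tunnel, had 1908 and 1938 TPM with DMSO and 1936 and 1807 TPM with CBR-5884. Rps15, a small subunit protein near the decoding site, had 1904 and 1943 TPM against 1990 and 1722 TPM. The last 2 overlapped between groups. Rps24 apart, CBR-5884 library 4 had the lowest value of each of these 6 genes.

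No ribosomal protein gene was called different between CBR-5884 and DMSO. With limma on log2(TPM + 1) and Benjamini-Hochberg adjustment over all tested genes, 0 of 79 members had an adjusted p under 0.05, and 0.0% of the 14920 tested genes did. The smallest adjusted p of a member was 0.998. At an unadjusted p under 0.05 there was 1 of 79 members, Rpl36a, while 3.66% of all tested genes were there. The 95% interval of a member's log2 fold change reached a median of 0.24 to either side, which is 1.18-fold, and for 77 of the 79 members it excluded a change of 1.5-fold in either direction. Where the interval of a gene holds 0, its difference cannot be told from 0 in these 2 against 2 libraries. The interval of Rpl36a lay below 0 before adjustment over all genes.

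Most point estimates were slightly negative. The log2 fold change was below 0 for 67 of 79 members with a median of −0.07, or 0.952-fold, while it was below 0 for 52.8% of all tested genes (median −0.01) and for 66.3% of the 2286 genes with a mean of at least 100 TPM (median −0.04). In 13 members both CBR-5884 libraries lay below both DMSO libraries and in 0 both lay above, where 17.7% and 13.6% of all tested genes did so; of the genes with a mean of at least 100 TPM, 24.8% lay lower in this way. The count of 13 is thus not above the share among other genes, and the count of 0 is below it. Large subunit genes had 40 of 46 negative values and a median of −0.07, and small subunit genes 27 of 33 and a median of −0.08. The medians of the subunits differed by 0.01 on the log2 scale. Of the 13 members without overlap, 10 were of the large subunit, among them Rpl10, Rpl12, Rpl13a, Rpl28, Rpl35, Rpl36, Rpl36a, Rplp0 and Rplp1, and 3 of the small subunit, among them Rps3 and Rps10.

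**Figure D2:**
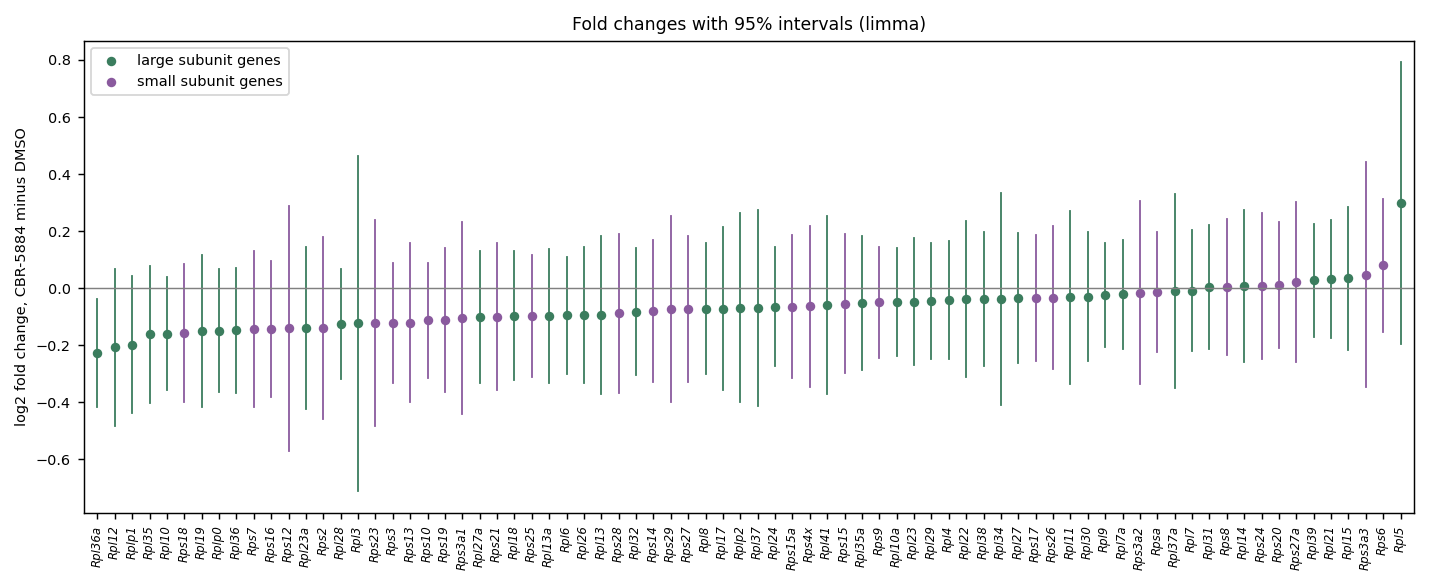
Log2 fold change of CBR-5884 against DMSO for 76 of the 79 members, ordered from the lowest to the highest, with 95% intervals from limma; the line marks no difference. Only the interval of Rpl36a lies wholly below 0, before adjustment over all genes, and 64 of the 76 points lie below the line.

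The low values were most marked in 1 library. CBR-5884 library 4 was the lowest of the 4 libraries for 65 of 79 members, against 27.1% of all tested genes, and the highest for 0. Measured as the deviation from each gene's own mean over the 4 libraries, the median member stood at 0.01 and 0.09 in the DMSO libraries and at 0.04 and −0.12 in the CBR-5884 libraries on the log2 scale. Large subunit genes (0.00, 0.09, 0.03 and −0.11) and small subunit genes (0.01, 0.07, 0.07 and −0.13) showed the same order of lowest library. The median of all tested genes stayed between −0.01 and 0.02. Without CBR-5884 library 4 the median log2 fold change of the members was 0.01, with 31 of 79 below 0 against 51.6% of all tested genes. Without CBR-5884 library 2 it was −0.16, with 74 of 79 below 0. The direction of the list as a whole therefore differs between the CBR-5884 libraries, and the median lies within the spread of libraries of the same group.

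**Figure D3:**
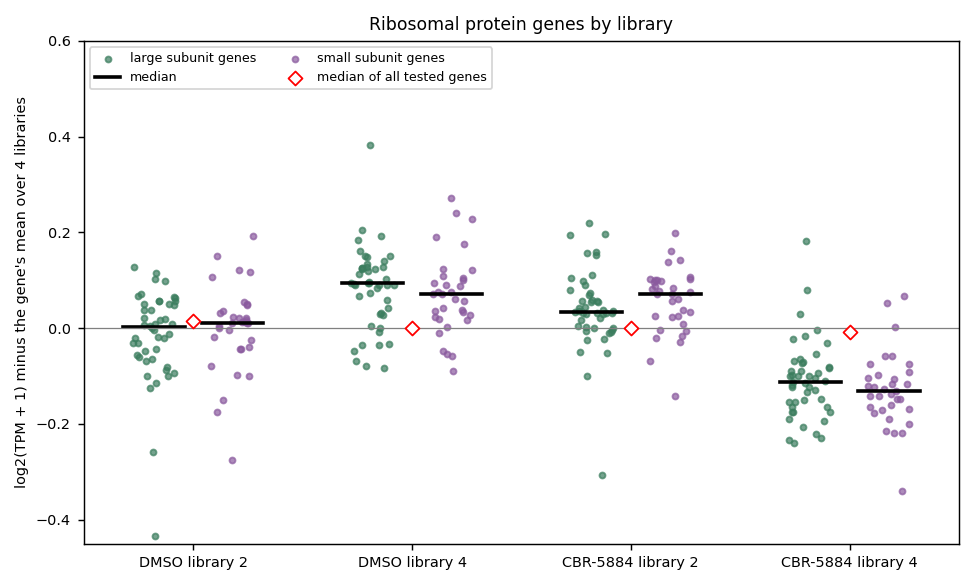
Difference of each member's log2(TPM + 1) from its own mean over 4 libraries (vertical axis), by library, for large (green) and small (purple) subunit genes; black bars are medians and diamonds the median of all tested genes. The medians are near or above 0 in 3 libraries and at −0.11 and −0.13 in CBR-5884 library 4, where the diamond stays at −0.01.

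Other measures of the libraries moved beside this. The deposited TPM summed to 1002976 and 998739 in the DMSO libraries and to 997741 and 966761 in the CBR-5884 libraries. CBR-5884 library 4 was thus also the lowest in total. After rescaling to equal totals the members' median log2 fold change was −0.04, with 61 of 79 below 0. The median of all tested genes was then 0.01, with 6858 of 14945 below 0. With libraries centred on their medians, the members' median was −0.08, with 72 of 79 below 0, and that of all tested genes −0.02. The 7 macrophage markers, of which 6 passed the filter, summed to 46.1 and 44.7 TPM with DMSO and to 27.4 and 76.1 TPM with CBR-5884. CBR-5884 library 4 was the highest in these markers. The 10 Sertoli cell markers (9 tested) summed to 219 and 117 TPM with DMSO and to 189 and 157 TPM with CBR-5884. The 10 germ cell markers were all tested and summed to between 2387 and 2447 TPM in the 4 libraries. Leydig cell markers summed to 8.70 to 13.9 TPM, endothelial markers to 9.44 to 10.4 TPM, stromal markers to 53.2 to 67.9 TPM and erythroid markers to 0.707 to 1.74 TPM, with the globin genes Hba-a1, Hbb-bs and Hbb-bt at 0 in every library. The part of these in the levels of ribosomal protein genes was not tested. In such bulk RNA, fewer cells of a type and less RNA per cell cannot be told apart.

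The lateral stalk, which binds and activates the translation factors, had the lowest median log2 fold change of the structural groups. Rplp0, the base of the stalk, had 1628 and 1755 TPM with DMSO and 1577 and 1473 TPM with CBR-5884. Rplp1, one of the acidic proteins that form its arms, had 2591 and 2774 TPM with DMSO and 2466 and 2217 TPM with CBR-5884 (log2 fold change −0.20, 95% interval −0.44 to 0.04). Rpl12, which anchors the stalk base, had 78.5 and 82.8 TPM with DMSO and 76.7 and 63.4 TPM with CBR-5884 (log2 fold change −0.21, 95% interval −0.48 to 0.07). These 3 did not overlap between groups, beside 17.7% of all tested genes with CBR-5884 lower in this way. Rplp2, the partner of Rplp1, had 2097 and 2212 TPM with DMSO and 2337 and 1805 TPM with CBR-5884, which is the highest and the lowest value within 1 group. The median log2 fold change of the 4 stalk genes was −0.17, and without CBR-5884 library 4 it was −0.09, with 3 of 4 below 0. With limma 0 of the 4 were called, and their adjusted p were all 0.998.

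The 2 proteins that carry the 5S ribosomal RNA into the large subunit, and that are known to bind Mdm2 when assembly fails, had values on either side of 0. Rpl11 had 448 and 418 TPM with DMSO and 478 and 375 TPM with CBR-5884 (log2 fold change −0.03). Rpl5 had 17.3 and 26.1 TPM with DMSO and 27.8 and 25.1 TPM with CBR-5884. Its log2 fold change of 0.30 was the highest among the members, with an interval of −0.20 to 0.79, and it rests on the low value in DMSO library 2; without that library it was 0.01. Without CBR-5884 library 4 both genes were above 0 (median 0.25), and summed with their copies both were below 0 (Rpl5 −0.10, Rpl11 −0.02). Rpl5 was also the least abundant member, at rank 7060 of all genes, for the gene at chr5:107900502-107909005 on the plus strand.

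The members on the X chromosome are Rps4x, Rpl10, Rpl36a and Rpl39, and all 4 were low for ribosomal protein genes, at 133 to 370 TPM with a median of 228 against a median of 1025 TPM for the 73 autosomal protein-coding members. Rpl36a, a large subunit protein near the tRNA exit site (chrX:134585654-134588062, plus strand), had 254 and 258 TPM with DMSO and 228 and 210 TPM with CBR-5884. Its groups did not overlap, and its log2 fold change of −0.23 was the lowest of all members (95% interval −0.41 to −0.04; limma unadjusted p = 0.0258, Benjamini-Hochberg adjusted p = 0.998). Rpl10, which joins the large subunit late in assembly, had 371 and 410 TPM with DMSO and 356 and 342 TPM with CBR-5884, again without overlap (log2 fold change −0.16). Rpl39, a small protein lining the exit tunnel, had 227 and 206 TPM with DMSO and 225 and 216 TPM with CBR-5884. Rps4x, of the small subunit, had 144 and 128 TPM with DMSO and 142 and 118 TPM with CBR-5884. The last 2 overlapped between groups.

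Among the other members at the ends of the order, Rpl35, a protein at the tunnel exit of the large subunit, had 701 and 744 TPM with DMSO and 697 and 597 TPM with CBR-5884 (log2 fold change −0.16). Rps6, the small subunit protein phosphorylated by S6 kinase, had 599.9 and 649 TPM with DMSO and 706 and 616 TPM with CBR-5884 (log2 fold change 0.08). Rpl15, a large subunit protein, had 301 and 350 TPM against 352 and 314 TPM, and Rpl21, also of the large subunit, had 517 and 580 TPM against 569 and 552 TPM. Rps3a3, one of the copies annotated as a pseudogene, had 281 and 398 TPM against 335 and 356 TPM. The groups of the last 4 overlapped, and their log2 fold changes lay between 0.03 and 0.08. A list of 11 members known to be mutated in Diamond-Blackfan anaemia, which is not complete, ranged from −0.14 for Rps7 to 0.30 for Rpl5, with 9 below 0 and a median of −0.05; without CBR-5884 library 4, 10 of the 11 were above 0. Rps19, the gene in which such mutations were first found, had 1550 and 1651 TPM with DMSO and 1601 and 1370 TPM with CBR-5884.

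How far a member's row stands for its messenger RNA depends on the copies in the same table. For each protein-coding member, a median of 63.3% of the 31-base words of its main transcript also occurred in another gene of the annotation, reaching 99.02% for Rpl35. At least 50% were shared in 58 of 77 members. Reads from a shared stretch cannot be assigned to 1 gene by sequence, so the level of a gene and of its copy are uncertain where both are listed. Rows typed as pseudogenes or named as such were added to the member with which they shared the most words, at least 20% of their own. These 704 rows fell into 76 families, and 466 of them had a mean under 1 TPM while 57 had at least 100 TPM. The choice of families and the sums was made after the values were seen.

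Several of the least abundant members stood beside a copy with a much higher level. Rpl5 at 24.1 TPM stood beside Gm15500, a copy on chr7:114705217-114706235 (minus strand), at 1173 TPM, and the coding sequence of Rpl5 was identical in it over 891 bases. Rpl12 at 75.3 TPM stood beside Gm10275 on chromosome 10 at 1822 TPM, again with an identical coding sequence of 495 bases. Rps23, a protein of the decoding centre, had a mean of 165 TPM and its copy Rps23-ps1 one of 1799 TPM. Rpl27a had a mean of 295 TPM beside Gm7536 at 1922 TPM. Rps28, a small subunit protein, had the highest family sum, with 1516 TPM in its own row and 3889 TPM in that of Gm10443. The sum was at least 2-fold the own level for 30 members and added under 10% for 29. Protein-coding rows without a pseudogene name were left out, so a sum can also be too low. Gm2000 at 764 TPM held 40.9% of the words of Rpl35, which had 685 TPM. Gm49804 at 121 TPM held 91.0% of the words of Rps10. Rpl35 and Rps10 are among the 29. Of 45 copies with at least 100 TPM that were aligned with their member, 16 had the same coding sequence and 38 at least 99% identity (median 99.7%); the lowest, Gm45660 beside Rps19 at 33.8%, covers only a stretch of the coding sequence.

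Summed with their copies, the genes were closer in level. Own levels spanned 139-fold from the lowest to the highest, with the upper quartile 2.92-fold the lower and an SD of 1.21 on the log2 scale. Family sums spanned 41.3-fold, from 134 to 5520 TPM, with quartiles 1.62-fold apart and an SD of 0.73. Under 500 TPM there were 17 members by their own level and 2 by family sum, Rps4x at 134 TPM and Rpl39 at 299 TPM, both on the X chromosome. The 4 X-linked families ran from 134 to 1024 TPM with a median of 410, while the 73 autosomal ones ran from 687 to 5520 TPM with a median of 1764. Rpl36a was the highest of the X-linked families, through Rpl36a-ps2 on chromosome 3 at 784 TPM. A family sum counts transcribed copies as the gene, so it can exceed the level of the gene itself.

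**Figure D4:**
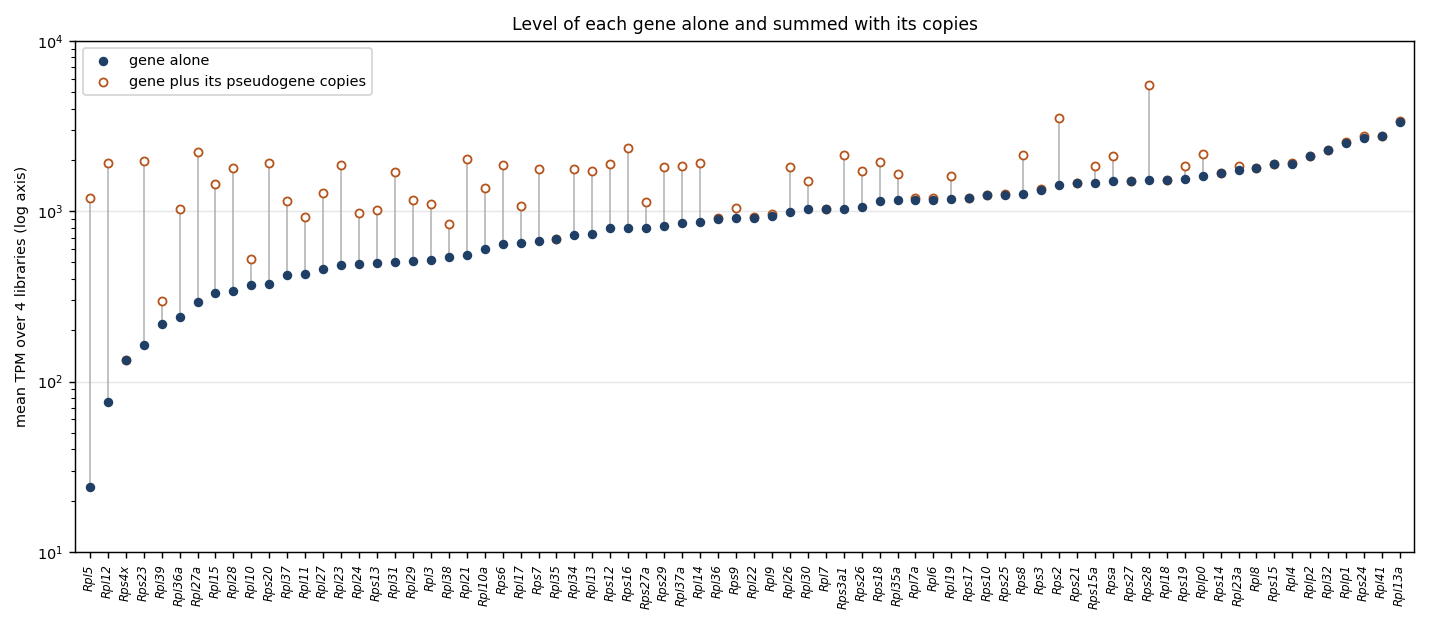
Mean TPM over 4 libraries (log axis) of 74 of the 77 protein-coding members alone (filled) and summed with its pseudogene copies (open), ordered by own level. The open points lie mostly above 1000 TPM, and the lowest are Rps4x at 134 TPM and Rpl39 at 299 TPM.

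The comparison between groups was much the same on sums, except in single genes. The median log2 fold change was −0.08, 73 of 79 were below 0, against 52.7% of all genes tested on this scale, and with limma 0 were called and 0 had an unadjusted p under 0.05. In 18 of the 79 sums the groups did not overlap, all with CBR-5884 lower, where 17.7% of all genes on this scale did so. Rps3a2 and Rps3a3 entered both alone and in the sum of Rps3a1. Rpl36a, at −0.23 alone, was −0.03 as a family sum, and Rpl5, at 0.30 alone, was −0.10. Rpl10 turned from −0.16 to 0.01 and Rps6 from 0.08 to −0.08. The stalk median was −0.17 on sums as well, but copies could change it little. The own rows of Rplp1 and Rplp2 held 99.4% and 99.9% of their sums. Rpl12, whose own row held 3.94% of its sum, went from −0.21 alone to −0.17.

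In some families the split between gene and copy differed with the library number, in the same direction in both groups. In 8 members the gene's own share of its family differed by at least 5 percentage points between the libraries numbered 4 and 2 in both groups, and in all 8 the difference had the same direction with DMSO and with CBR-5884; this bound was also chosen after the values were seen. The clearest was Rpl3, the large subunit protein beside the peptidyl transferase centre (chr15:80077791-80091868, minus strand). It had 420 and 655 TPM with DMSO and 406 and 571 TPM with CBR-5884, both libraries numbered 4 above both numbered 2. Its copy Rpl3-ps1 (chrX:13202571-13203780, plus strand) had 689 and 475 TPM with DMSO and 736 and 472 TPM with CBR-5884, in the opposite order. Their family sum was 1111 and 1131 TPM with DMSO and 1143 and 1044 TPM with CBR-5884. The share of Rpl3 was thus 37.8% and 57.9% with DMSO and 35.6% and 54.6% with CBR-5884. Rps3a1 and Rps3a2, the member annotated as a pseudogene, showed the reverse order of libraries: Rps3a1 had 1172 and 965 TPM with DMSO and 1096 and 893 TPM with CBR-5884, and Rps3a2 had 659 and 850 TPM against 710 and 773 TPM. Its share was 55.4% and 43.5% with DMSO and 51.1% and 44.1% with CBR-5884.

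The coding sequences of these pairs are nearly the same. Over the main transcript, Rpl3-ps1 held 84.6% of the words of Rpl3, and Rps3a2 held 68.2% of those of Rps3a1. Which bases the split between gene and copy rests on was not tested. Over 1209 coding bases Rpl3 and Rpl3-ps1 differ by C57A and T786C, counted from the first base of the start codon, with the base of Rpl3 first. Over 792 coding bases Rps3a1 and Rps3a2 differ by T216C, T534C, A645T and T668C, with the base of Rps3a1 first. The windows below are from the GENCODE M21 transcripts in coding orientation, with the differing base in capitals: positions 37 to 77 and 766 to 806 of Rpl3, then 196 to 236 of Rps3a1.
Rpl3, first window: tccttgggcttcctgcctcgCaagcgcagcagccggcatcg
Rpl3-ps1, first window: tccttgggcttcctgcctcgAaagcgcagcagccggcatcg
Rpl3, last window: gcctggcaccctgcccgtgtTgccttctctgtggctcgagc
Rpl3-ps1, last window: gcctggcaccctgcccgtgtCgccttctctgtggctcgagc
Rps3a1: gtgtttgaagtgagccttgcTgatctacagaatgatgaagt
Rps3a2: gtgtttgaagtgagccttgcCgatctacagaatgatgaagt
The other 6 members with such a split were Rpl17, Rpl35a, Rpl39 and Rps2, whose share was higher in the libraries numbered 4, and Rpl34 and Rps12, whose share was lower. Over the 48 members with an own share under 90%, most shifts were small: the median size of the difference was 2.42 percentage points between the DMSO libraries, 1.61 points between the CBR-5884 libraries and 1.58 points between the treatment means. The share was higher in number 4 in both groups for 16 of the 48 and lower in both for 18. The largest difference between treatment means was 8.37 points, and that between the DMSO libraries for Rpl3 was 20.1 points. The former was that of Rpl10, whose share was 70.8 and 79.2% with DMSO and 67.2 and 66.1% with CBR-5884. The sources do not say what the libraries numbered 2 have in common, and the bases in the reads were not analysed here.

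**Figure D5:**
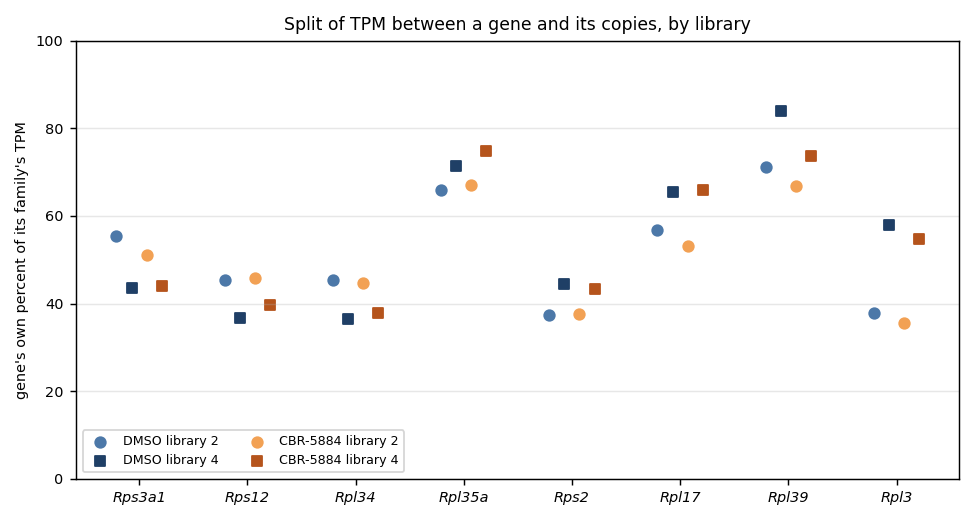
Share of a family's TPM in the row of the named gene (vertical axis, percent) in each library, for the 8 members with a shift of at least 5 percentage points between library numbers in both groups. Circles (number 2) and squares (number 4) separate within each gene in the same order in blue (DMSO) and orange (CBR-5884), most for Rpl3.

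The other genes of the translation machinery had no calls either. Of the ribosomal proteins outside the naming rule, Fau, a fusion of a ubiquitin-like protein with a small subunit protein, had 764 and 832 TPM with DMSO and 769 and 699 TPM with CBR-5884, and Rack1, the scaffold on the small subunit, had 868 and 1032 TPM against 864 and 839 TPM. Among 17 other messenger RNAs of the pyrimidine tract class, 13 had a negative log2 fold change with a median of −0.05, from −0.20 for Eef2, the elongation factor of translocation, to 0.05 for Hnrnpa1, an RNA-binding protein. In this list 8 of 17 had groups without overlap, all lower with CBR-5884, beside 17.7% of all tested genes and 24.8% of those with at least 100 TPM. Leaving out CBR-5884 library 4 gave a median of −0.05, and leaving out CBR-5884 library 2 gave −0.11, with 13 below 0 each time. RNA polymerase I and its factors had 8 of 15 below 0 with a median of −0.00, from −0.14 for Ttf1 to 0.34 for Taf1a. Without CBR-5884 library 4 it was 4 of 15 (median 0.02), and without CBR-5884 library 2 it was 11 of 15 (median −0.04). Ribosome assembly factors had 42 of 66 below 0 and a median of −0.04, from −0.21 for Sbds, which releases eIF6 from the large subunit, to 0.20 for Efl1, the GTPase that works with it. Here 30 of 66 were below 0 without CBR-5884 library 4 (median 0.01) and 52 of 66 without CBR-5884 library 2 (median −0.08). With limma and Benjamini-Hochberg adjustment 0 genes of these lists were called, and at an unadjusted p under 0.05 there was 1, Nsun5, an rRNA methyltransferase, at 136 and 140 TPM against 119 and 122 TPM.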

How the data were processed

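RNA of 4 libraries, 2 per group, was quantified by the authors with fastp, kallisto and the build mm10, per the submitters' processing notes; the sources state neither versions nor settings. Per the labels' protocols, 100 ng of total RNA entered each TruSeq library. The deposited table gives, per the file headers, TPM and scaled reads per base, both used here as gene-level signal values and repeated for each of 117403 transcripts; repeats within a gene were dropped. Totals and the steps between low values correspond to 22400000 to 28200000 reads per library. Whole multiples (tolerance 0.05) made up only 35.4 to 36.3% of values up to 20.5 steps, so reads were not recovered and no count test was used. Intervals come from the spread between libraries of each gene, which limma draws towards a trend over all tested genes.

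Groups were compared two-sided by limma-trend (limma 3.58.1, R 4.3.3) without covariates, using log2(TPM + 1) of the 14920 genes whose mean TPM was 1 or more. The other 21168 genes were left out. A gene was called when its Benjamini-Hochberg adjusted p was under 0.05. A fold change is on the log2(TPM + 1) scale and understates that of low genes. The fit was tested on simulated data. The members, lists and tests were chosen with earlier results of these data known. Named are the 10 members with the highest mean TPM, the 5 with the highest and the 5 with the lowest log2 fold change, those at an unadjusted p under 0.05, and the stalk, 5S and X-linked genes. Some genes that this rule names are not reported here, and they are not drawn by name. Of each pathway list the highest and the lowest were named. Rps23, Rpl27a, Rps28, Rpl3, Rps3a1 and Nsun5 were named after their values were seen. Gene types, transcripts and positions are those of GENCODE M21 (GRCm38). Alternatives were other pseudocounts, filters and scalings, scaled reads per base, robust variances, a block, sums with copies, and leaving out each library.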

Additional observations from a re-analysis of the deposited data

How the results depend on the processing

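No member was called under any alternative. With all 4 libraries the smallest limma adjusted p of a member was 0.912, with the library number as a replicate block. Signs below are those of 23 named genes. The count at an unadjusted p under 0.05, 1 in all 4 libraries, was 2 with scaled reads per base and 0 with either sum over copies, and 0 to 6 when each library was left out in turn. The median log2 fold change of the members ran from −0.16 without CBR-5884 library 2 to 0.011 without CBR-5884 library 4. In the same way large subunit genes ran from −0.15 to 0.010, small subunit genes from −0.18 to 0.038 and the difference of large minus small from −0.028 to 0.031. The ratio of large to small sums differed between the groups by −0.0077, by −0.016 to 0.00089 when a library was left out, by 0.0072 with copies named -ps added and by 0.010 with all copies added. Of 230 values of named genes under the other settings 220 kept their sign. Rps24 turned to −0.0039 with libraries centred on their medians. With copies named -ps added Rpl10 was 0.013, Rpl15 −0.11, Rpl36a 0.023 and Rps6 −0.078, and with all copies added Rpl10 was 0.0079, Rpl15 −0.089, Rpl21 −0.057, Rpl5 −0.098 and Rps6 −0.077. All copies here are the rows typed or named as pseudogenes, and these sums were chosen after seeing the data.

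When each library was left out in turn, 18 of 92 values had the other sign. The ranges were −0.21 to 0.14 for Rpl11, −0.072 to 0.14 for Rpl15, −0.050 to 0.12 for Rpl21, −0.042 to 0.097 for Rpl39, −0.090 to 0.0096 for Rpl4, −0.19 to 0.075 for Rpl41, −0.25 to 0.12 for Rplp2, −0.16 to 0.049 for Rps15, −0.071 to 0.088 for Rps24, −0.20 to 0.30 for Rps3a3, −0.20 to 0.070 for Rps4x and −0.019 to 0.18 for Rps6. A group left with 1 library was assumed to vary like the other. The cause was not tested. With the library number as a replicate block the median was −0.07, 0 members were called and 1 had an unadjusted p under 0.05. The labels do not say whether the number pairs the libraries, so they were not treated as pairs. Across 14920 genes the difference of library 4 from library 2 correlated between the groups with a Pearson r of 0.20.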

Other observations

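Across the 79 members the log2 difference of library 4 from library 2 with DMSO had a Pearson r of 0.65 (Spearman rho 0.48) with that same difference with CBR-5884, and 0.57 without Rpl3. Among the 2286 genes with a mean of at least 100 TPM it was 0.09, and over the family sums of the members 0.26. The points are genes of the same 4 libraries and many share sequence, so they are not independent. In each library the rows of the members and their copies together held 12.9 and 13.7% of all TPM with DMSO and 13.2 and 12.1% with CBR-5884, 1.55 to 1.57 times the protein-coding members alone.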
